A study of Mus musculus with 24 samples.

Results

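Calb1 and Calb2 are 2 of the 23306 genes in a table of transcript levels from the dentate gyrus of adult mice, and they were taken by name because they mark successive stages of the newborn granule neuron. For each gene, and for the Calb1 to Calb2 ratio, the level was read in every one of 24 libraries. Female C57BL6 mice were used, per the labels, of the line Nes-CreERT2::RiboTag, in which the Nestin promoter drives a Cre recombinase that tamoxifen switches on, and Cre adds a haemagglutinin tag to the ribosomal protein Rpl22. All groups carried both alleles and all received tamoxifen at 160 mg/kg daily for 5 days, injected intraperitoneally at 9 to 11 weeks of age. Running mice were housed singly with a wheel that turned and sedentary mice with a blocked one, for treatment times of 11, 18 or 27 days. RNA was taken from the ribosomes pulled down by the tag (IP, labelled as immature neurons of the dentate gyrus) and from the dentate gyrus without pull-down (input). Each of the 12 combinations of fraction, activity and day had 2 libraries, named a and b (day 11), c and d (day 18) or e and f (day 27). The Nestin promoter acts in neural stem cells, so the tag stays in all their descendants whatever their stage. The number of mice behind a library is not stated in the labels, and no library from mice without Cre was analysed here.

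Calretinin (Calb2) and calbindin (Calb1) are cytosolic proteins that bind calcium through EF-hand motifs and buffer its rises. In the adult dentate gyrus, newborn granule neurons pass through a transient stage in which they express calretinin, and mature granule neurons express calbindin instead. Calretinin is also found in a class of interneurons, in Cajal-Retzius cells and, in the mouse, in mossy cells, while calbindin is also found in some interneurons and in a share of CA1 pyramidal neurons.

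In GENCODE M21 on GRCm38, the assembly of the mm10 build, Calb1 (ENSMUSG00000028222.2) lies at chr4:15881264-15908064 on the plus strand, and Calb2 (ENSMUSG00000003657.9) at chr8:110137502-110168210 on the minus strand. Each has 11 exons in the transcript used, with 786 coding bases in Calb1 and 816 in Calb2, and neither overlaps another annotated gene. Because the genes are paralogs, their coding sequences were aligned to see how far reads of one could fall on the other: 513 of 781 aligned bases (65.7%) were identical, and no stretch of 25 bases was shared. The longest shared stretch is 12 bases, shown in capitals within 30 bases of flank on each side, 5′ to 3′ in the coding sequence.
Calb1, coding bases 223 to 294: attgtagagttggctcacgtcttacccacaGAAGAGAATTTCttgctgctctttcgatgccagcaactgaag
Calb2, coding bases 253 to 324: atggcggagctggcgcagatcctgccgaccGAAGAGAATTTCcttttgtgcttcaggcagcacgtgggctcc

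Values are TPM, a share of all transcripts that takes account of transcript length, so levels of both genes can be set side by side. The table keeps no read depth, and the precision rests on the spread between libraries. A few libraries stood apart over all genes. The RNA component of RNase P, Rpph1, took 17.4% of the total in the IP running library a and 4.58% to 9.16% in the other IP libraries. The mean level of 1122 olfactory receptor genes was 8.0 to 16.4 TPM in the 4 input libraries of day 18, 1.06 to 4.41 TPM in those of day 11 and 2.87 to 5.54 TPM in those of day 27. Markers of the labelled cells were present in the IP: Dcx, a microtubule-binding protein of migrating young neurons, stood at 119 ± 41.6 TPM (SD, n = 12) against 14.7 ± 1.35 TPM in the input, and Rbfox3, the neuronal nuclear protein NeuN, at 186 ± 35.6 against 214 ± 27.2 TPM. Genes of other stages were also higher in the IP by limma: 15 of 16 listed for progenitors and neuroblasts (1 lower) and 14 of 18 for neural stem cells and astrocytes (2 lower). For immature granule neurons 16 of 27 were higher and 5 lower, and for mature ones 5 of 30 were higher and 19 lower. Of all genes, 41.4% were higher and 28.5% lower.

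In the IP, Calb2 was the higher of the pair early and Calb1 drew level with it late. At day 11, Calb1 stood at 87.40 and 87.45 TPM in the sedentary libraries a and b and at 109.96 and 87.05 TPM in the running ones. Calb2 on that day stood at 368.38 and 192.53 TPM in the sedentary libraries and at 456.67 and 462.94 TPM in the running ones. Calb2 was therefore above Calb1 in every IP library of day 11, with the lower Calb2 values in the sedentary mice.

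At day 18, Calb1 stood at 100.87 and 80.80 TPM in the sedentary libraries c and d and at 83.44 and 75.18 TPM in the running ones. Calb2 stood at 138.32 and 116.32 TPM in the sedentary libraries and at 549.45 and 323.93 TPM in the running ones. The widest gap between the activities in Calb2 was on this day, while Calb1 overlapped between them.

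At day 27, Calb1 stood at 124.79 and 108.48 TPM in the sedentary libraries e and f and at 158.89 and 163.41 TPM in the running ones. Calb2 stood at 129.64 and 119.49 TPM in the sedentary libraries and at 246.61 and 130.86 TPM in the running ones. Both genes were higher in both running libraries than in either sedentary one, but for Calb2 the running library f lay just above the sedentary library e.

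**Figure D1:**
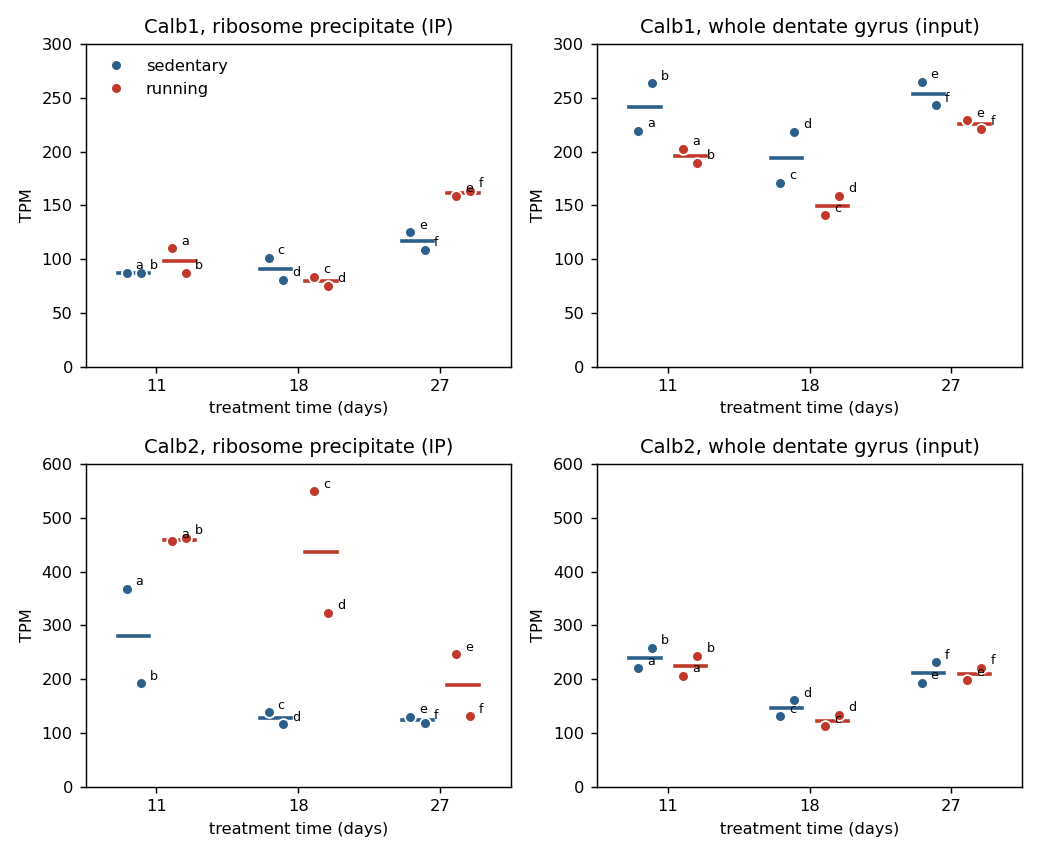
Level of Calb1 and Calb2 in TPM (y axes) by day (x axes) in each of the 24 libraries, with letters and points for libraries, horizontal bars for group means and colours for activity. Calb2 in the IP fell from 370.1 TPM at day 11 to 157 TPM at day 27, and Calb1 in the IP rose from 93.0 to 139 TPM.

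Over the groups, Calb1 in the IP was highest in running mice at day 27 (mean 161 TPM), followed by sedentary mice at day 27 (117 TPM). Below these came running day 11, sedentary day 18, sedentary day 11 and running day 18, at 98.5, 90.8, 87.4 and 79.3 TPM. Neighbours in that order overlapped, except that the first stood clear of the second and sedentary day 11 stood clear of running day 18. Calb2 in the IP had means of 460 TPM in running day 11, 437 TPM in running day 18, 280 TPM in sedentary day 11, 189 TPM in running day 27, 127 TPM in sedentary day 18 and 124.6 TPM in sedentary day 27. All neighbours in the order of Calb2 overlapped.

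From day 11 to day 27 in the IP, as the mean of both activities, Calb1 rose and Calb2 fell. Calb1 went from 93.0 ± 11.3 to 139 ± 26.6 TPM (SD, n = 4 each; log2 difference 0.56 ± 0.11 SE, adjusted p = 0.00503 by limma) and Calb2 from 370.1 ± 126 to 157 ± 60.2 TPM (log2 difference -1.22 ± 0.25, adjusted p = 0.00862). Libraries of the 2 days overlapped for both genes. Of the 17282 genes tested in the IP, 15.3% passed in this comparison, 11.4% higher and 3.88% lower at day 27, and the median gene moved by 0.15. The fall of Calb2 was exceeded by that of 56 genes. In tissue RNA, fewer cells of a type and less RNA per cell cannot be told apart. Without both IP libraries a of day 11, the Calb2 difference was -0.99 with an adjusted p of 0.0713, and after median-of-ratios scaling the Calb1 difference was 0.42 with an adjusted p of 0.0628.

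Single steps were tested next. Calb1 did not pass from day 11 to day 18 (log2 difference -0.13 ± 0.11, adjusted p = 0.552, beside 5.66% of genes called) and rose from day 18 to day 27 (85.1 ± 11.1 to 139 ± 26.6 TPM, log2 difference 0.69 ± 0.11, adjusted p = 0.0339), with no overlap between the libraries of these days. Only 0.122% of genes passed from day 18 to day 27, where Calb1 had the ninth lowest p, and 7.09% had libraries that did not overlap. Leaving out any one of 6 IP libraries (running c, d or f, sedentary d, e or f) took the adjusted p of this rise above 0.05, to at most 0.179. Calb2 differed by -0.59 ± 0.25 from day 11 to day 18 (adjusted p = 0.179) and by -0.63 ± 0.25 from day 18 to day 27 (adjusted p = 0.306), so neither step passed alone. The day 18 mean of Calb2, 282 ± 201 TPM, covers sedentary libraries at 116.32 and 138.32 TPM and running libraries at 323.93 and 549.45 TPM.

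The Calb1 to Calb2 ratio joins both movements. In sedentary mice the IP ratio was 0.237 and 0.454 at day 11, 0.729 and 0.695 at day 18, and 0.963 and 0.908 at day 27. In running mice it was 0.241 and 0.188 at day 11, 0.152 and 0.232 at day 18, and 0.644 and 1.25 at day 27. The sedentary ratio was thus higher on each later day without overlap, whereas the running ratios of days 11 and 18 overlapped and those of day 27 lay above both. The mean ratio over both activities was 0.280 ± 0.119 at day 11, 0.452 ± 0.302 at day 18 and 0.941 ± 0.248 at day 27 (SD, n = 4). On the log2 scale the ratio at day 27 was 1.79 above that at day 11, or 3.46-fold, with a two-sided exact permutation p of 0.0286, the smallest that 70 relabellings of 4 against 4 libraries can give, and 0.0952 after Benjamini-Hochberg adjustment over the 10 comparisons of the ratio. The step from day 18 to day 27 was 2.51-fold (exact permutation p = 0.0857, adjusted 0.122) and that from day 11 to day 18 was 1.38-fold (exact permutation p = 0.514, adjusted 0.514). The running library f of day 27 was the single IP library in which Calb1 exceeded Calb2.

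**Figure D2:**
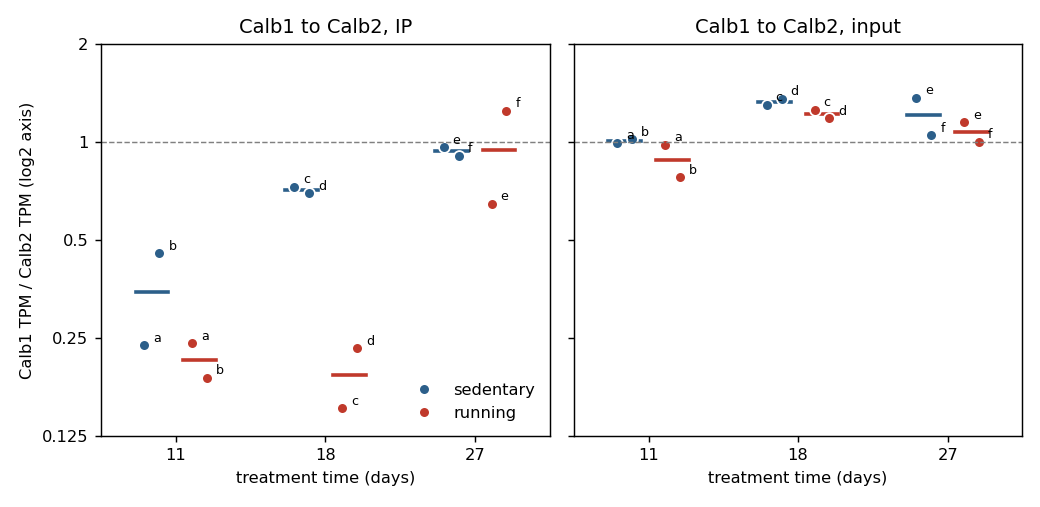
Ratio of Calb1 to Calb2 TPM (log2 axis) in each library by day, for IP and input and for running and sedentary mice. Sedentary IP ratios step up at each day, running IP ratios stay between 0.152 and 0.241 until day 18, and input ratios lie between 0.779 and 1.37.

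Between running and sedentary mice, Calb2 in the IP was higher in the running libraries on every day, by little in library f of day 27. The difference did not pass the test over all genes. Over the 3 days Calb2 stood at 362 ± 157 TPM in running and 177 ± 97.6 TPM in sedentary libraries (SD, n = 6 each), a log2 difference of 1.01 ± 0.20 (adjusted p = 0.142 by limma). In this comparison 0.00579% of genes, a single one, passed, and 2453 genes had an unadjusted p under 0.05. Calb2 had the 45th lowest p of 17282 genes, and 14 genes had a larger difference. Libraries overlapped over all days, but within each of the 3 days both running libraries lay above both sedentary ones, as 29.3%, 45.3% and 45.9% of genes did in either direction at days 11, 18 and 27. Without the running library f of day 27 the difference was 1.16, with an adjusted p of 0.0498, and without day 18 it was 0.66, with an adjusted p of 0.748. By letter, the running library held 1.24 times the Calb2 level of the sedentary one at a, 2.40 times at b, 3.97 times at c, 2.78 times at d, 1.90 times at e and 1.10 times at f. That it was higher in 6 of 6 follows from the lack of overlap within days. With the letter as a replicate block the same difference had an adjusted p of 0.036, in a fit that called 440 genes, but libraries of a letter did not deviate together on every day.

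By day, the Calb2 difference in the IP was 0.79 ± 0.35 at day 11 (adjusted p = 0.880), 1.73 ± 0.35 at day 18 (adjusted p = 0.324, the 17th lowest p) and 0.53 ± 0.35 at day 27 (adjusted p = 0.621). Leaving out 1 library moved the day 11 value to between 0.32 (without sedentary b) and 1.25 (without sedentary a), and the day 27 value to between 0.072 (without running e) and 0.98 (without running f). At days 11 and 18 limma called 0 genes, with 832 and 1550 at an unadjusted p under 0.05, and at day 27 it called 0.0289%. The difference between days was not detected by the F test (adjusted p = 0.931, beside 0.00579% of genes called). Calb1 stood at 113 ± 39.1 TPM in running and 98.3 ± 16.5 TPM in sedentary IP libraries over the 3 days (log2 difference 0.15 ± 0.09, adjusted p = 0.486) and was higher in running in 3 of 6 letters. Its difference was 0.16 ± 0.16 at day 11 (adjusted p = 0.885), -0.19 ± 0.16 at day 18 (adjusted p = 0.746) and 0.47 ± 0.16 at day 27 (adjusted p = 0.410), the single day on which its libraries did not overlap.

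The IP ratio had a median of 0.236 in running (0.152 to 1.25) and 0.712 in sedentary libraries (0.237 to 0.963), which overlapped. Its stratified difference was -0.87 on the log2 scale, or 0.547-fold, with an exact permutation p of 0.0741 within days and an adjusted value of 0.122, where the smallest possible p is 0.00926. Without day 18 the difference was -0.34, with an adjusted value of 0.533. The ratio was higher in the running library in 2 of 6 letters.

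The level of other genes of young neurons was compared in the same libraries. All 27 tested members of a list of immature granule neuron genes had a positive difference, with a median of 0.29 against -0.07 over all genes. None passed by limma, and 15 had an unadjusted p under 0.05, beside 14.2% of all genes. By day, 10 of 27 were positive at day 11 (median -0.03, against -0.11 over all genes), 27 at day 18 (median 0.61) and 27 at day 27 (median 0.33). At day 11 Calb2 was higher in both running libraries and most of the list was not, although the list median lay above that of all genes. Sema3c, a secreted guidance cue, stood at 307 ± 110 in running and 171 ± 61.6 TPM in sedentary libraries (log2 difference 0.83 ± 0.17, adjusted p = 0.135), and Dcx at 137 ± 47.2 and 101 ± 28.7 TPM (0.41 ± 0.18, adjusted p = 0.334). The summed level of the list was 5735 to 11061 TPM in running and 5414 to 7471 TPM in sedentary libraries. Set against Dcx, Calb2 had a ratio to it with a median of 2.39 in running (1.39 to 5.05) and 1.59 in sedentary libraries (1.28 to 2.46), and these overlapped. The lists of other stages and cells were counted in the same libraries, with 0 genes passing by limma in any of them. Their counts at an unadjusted p under 0.05 stand beside the same 14.2% of all genes. Of 16 progenitor and neuroblast genes 13 were positive for running (median 0.17, 3 with an unadjusted p under 0.05). At day 18 all 16 of them were positive (median 0.49, against -0.01 over all genes). Of 30 mature granule neuron genes 16 were positive over the 3 days (median 0.009, 9 with an unadjusted p under 0.05). Of 18 genes of neural stem cells and astrocytes 1 was positive for running (median -0.30, 12 with an unadjusted p under 0.05), of 12 of the oligodendrocyte lineage 1 (median -0.19, 3 with an unadjusted p under 0.05) and of 10 of microglia 0 (median -0.23, 2 with an unadjusted p under 0.05). The part of these lists in the Calb2 difference was not tested.

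In the input, day 18 was the low point of both genes. Calb1 stood at 218.99 and 263.45 TPM in the sedentary and 202.57 and 189.56 TPM in the running libraries of day 11, and Calb2 at 220.70 and 258.47 TPM and at 206.49 and 243.42 TPM. At day 18, Calb1 stood at 170.63 and 218.18 TPM in the sedentary and 140.66 and 158.72 TPM in the running libraries, and Calb2 at 130.98 and 160.83 TPM and at 112.23 and 134.17 TPM. At day 27, Calb1 stood at 264.80 and 242.85 TPM in the sedentary and 228.97 and 221.38 TPM in the running libraries, and Calb2 at 193.51 and 231.64 TPM and at 199.32 and 221.52 TPM. All day 18 values of Calb2 lay below those of the other days, and those of Calb1 did so except for the sedentary library d.

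By limma, both genes fell in the input from day 11 to day 18 (Calb1 log2 difference -0.35 ± 0.13, adjusted p = 0.0377; Calb2 -0.79 ± 0.13, adjusted p = 0.00083), where 49.2% of genes were called and the median gene moved by 0.23. Among genes with a mean of at least 5 TPM the median was -0.07. Immature granule neuron genes had a median of -0.30 (12 of 27 lower, 0 higher) and mature ones -0.21 (4 of 30 lower, 0 higher). Progenitor and neuroblast genes had a median of 0.18 (5 of 16 higher, 2 lower) and Cajal-Retzius genes 0.37 (4 of 9 higher, 0 lower). Calb1 and Calb2 both rose from day 18 to day 27 (Calb1 0.49 ± 0.13, adjusted p = 0.0163; Calb2 0.66 ± 0.13, adjusted p = 0.00873), where 37.1% of genes were called. From day 11 to day 27 neither passed (0.14 ± 0.13, adjusted p = 0.672, and -0.13 ± 0.13, adjusted p = 0.706), as for all other genes: limma called 0.00%, with 2917 genes at an unadjusted p under 0.05. The 4 input libraries of day 18 are those with the high olfactory receptor level, and the part of this in the day 18 values was not tested. The Calb1 fall to day 18 lost its call without any one of 9 input libraries (running a, c, d, e or f, sedentary b, c, e or f), with adjusted p up to 0.136. Its rise to day 27 lost it without running c or e or sedentary c or e, with adjusted p up to 0.0681.

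Between running and sedentary input libraries, neither gene passed by limma. Calb1 stood at 190.3 ± 34.9 TPM in running and 229.8 ± 35.4 TPM in sedentary libraries (log2 difference -0.28 ± 0.10, adjusted p = 0.953). It was lower in running without overlap on each day, and therefore in 6 of 6 letters. On days 11, 18 and 27, 20.8%, 36.5% and 43.0% of genes had input libraries that did not overlap. Calb2 stood at 186 ± 51.5 and 199 ± 47.3 TPM (-0.11 ± 0.11, adjusted p = 0.953). By day the Calb1 difference was -0.29 ± 0.18 at day 11, -0.37 ± 0.18 at day 18 and -0.17 ± 0.18 at day 27, and that of Calb2 -0.09 ± 0.19, -0.24 ± 0.19 and -0.01 ± 0.19, and limma called 0.00%, 0.00977% and 0.00% of genes on these days, with 500, 1210 and 1079 at an unadjusted p under 0.05. Over the 3 days limma called 0.00% of the 20462 input genes, with 858 at an unadjusted p under 0.05. The input ratio was lower in the running library in 6 of 6 letters (0.893-fold, exact permutation p = 0.0833, adjusted 0.122). The input ratio at day 18 was 1.36-fold that at day 11 (exact permutation p = 0.0286, adjusted 0.0952), at day 27 it was 1.21-fold that at day 11 (exact permutation p = 0.0571, adjusted 0.122) and 0.890-fold that at day 18 (exact permutation p = 0.2, adjusted 0.222).

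**Figure D3:**
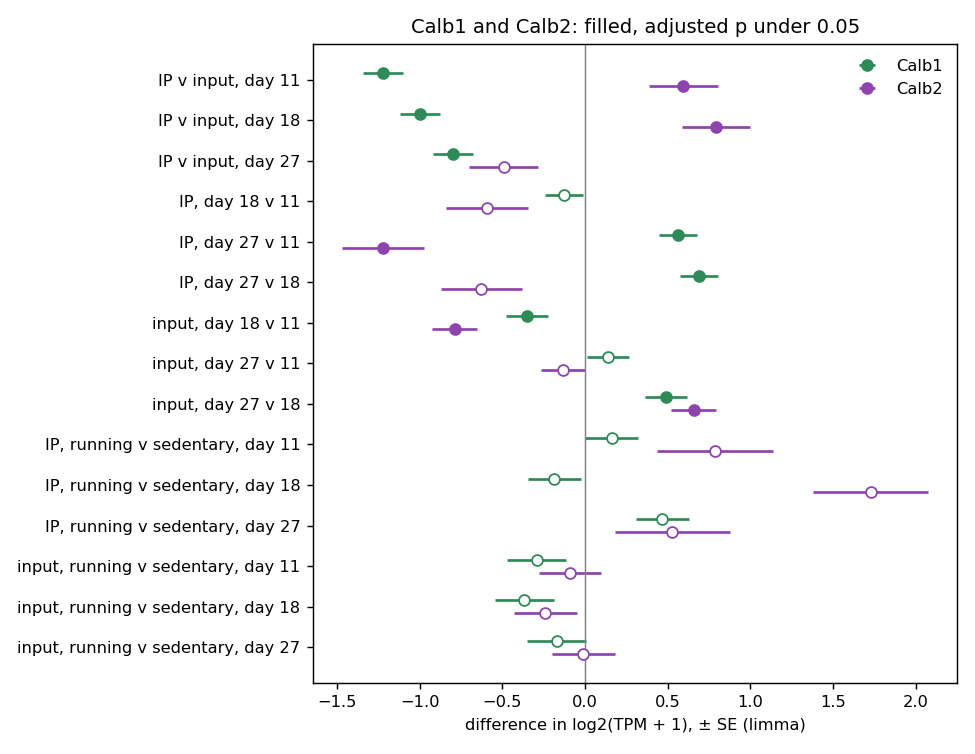
Log2 differences of Calb1 and Calb2 (x axis, log2(TPM + 1) scale, bars of 1 SE, filled points for an adjusted p under 0.05) in each comparison of fraction, day and activity (rows). Calb2 lies to the right of 0 for running in the IP and near 0 for running in the input, and Calb1 lies to the left of 0 in every comparison of IP with input.

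The running difference of Calb2 in the IP exceeded that in the input by 1.13 ± 0.24 (adjusted p = 0.595 by limma, the fourth lowest p of 19507 genes), and that of Calb1 by 0.42 ± 0.14 (adjusted p = 0.803). Limma called 0.00% of genes in this comparison, with 1166 at an unadjusted p under 0.05. For the ratio the corresponding difference was 0.613-fold, with an exact permutation p of 0.111 and an adjusted value of 0.139, a log2 difference of -0.71 that was -0.16 without day 18 (adjusted value 0.667). Without day 18 the corresponding Calb2 difference was 0.71.

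Against the input, the IP held less Calb1 throughout, and its Calb2 depended on the day. Calb1 had a level of 106 ± 29.6 TPM in the IP against 210.1 ± 39.4 TPM in the input (SD, n = 12 each; a log2 difference -1.01 ± 0.07, adjusted p = 1.56e-10 by limma) and was lower in the IP in 12 of 12 libraries of the same name. The 69.9% of genes called in this comparison make a call common. Within days the Calb1 difference was -1.22 ± 0.12 at day 11, -1.0 ± 0.12 at day 18 and -0.80 ± 0.12 at day 27 (adjusted p = 1.3e-07, 1e-06 and 2.48e-05), with no overlap on any day, beside 41.2%, 64% and 48.9% of genes called and 33.1%, 53.9% and 44.2% without overlap. The count of 12 of 12 names follows from this lack of overlap. As a ratio of group means, Calb1 in the IP was 0.362, 0.467 and 0.460 of the input at the 3 days in sedentary mice and 0.502, 0.530 and 0.716 in running mice.

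Calb2 over all days had 269.6 ± 157 TPM in the IP against 193 ± 47.7 TPM in the input, with a log2 difference of 0.30 ± 0.12 (adjusted p = 0.0328), and was lower in the IP in 5 of 12 names. This call was lost without any one of 11 libraries (IP running c or e, IP sedentary a, c or e, and input a, c or e of either activity), with adjusted p up to 0.0821, and after median-of-ratios scaling, where the difference was 0.017. Within days it was 0.59 ± 0.21 at day 11 (adjusted p = 0.0263), 0.79 ± 0.21 at day 18 (adjusted p = 0.00259) and -0.49 ± 0.21 at day 27 (adjusted p = 0.0551), with overlap on each day. The day 11 call was lost without any one of 5 day 11 libraries (IP a of either activity, IP running b, input a of either activity), with adjusted p up to 0.174. The day 27 difference passed without any one of 5 IP libraries (sedentary a or b, running c, d or e), with adjusted p down to 0.00783. The ratio of IP to input group means of Calb2 was 1.17, 0.873 and 0.586 in sedentary mice and 2.04, 3.54 and 0.897 in running mice. The sedentary IP mean thus exceeded the input mean at day 11 alone, and there through library a (368.38 TPM). The sedentary IP library b of that day, at 192.53 TPM, lay below both sedentary input libraries (220.70 and 258.47 TPM). A test added after the data were seen compared the steps between days in the IP with those in the input. The Calb2 step from day 18 to day 27 was itself -0.63 in the IP (adjusted p = 0.306 by limma) and 0.66 in the input (adjusted p = 0.00873). The input rise starts from the day 18 libraries with the high olfactory receptor level. From day 18 to day 27 Calb2 moved by -1.28 ± 0.29 more in the IP (adjusted p = 0.00756, where 26.1% of genes passed), from day 11 to day 27 by -1.09 ± 0.29 (adjusted p = 0.0631, where 1.78% passed; down to 0.0253 without IP sedentary b, IP running e or input running b), and Calb1 from day 11 to day 27 by 0.42 ± 0.17 (adjusted p = 0.222).

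The ratio of Calb1 to Calb2 was 0.558 ± 0.362 in the IP and 1.12 ± 0.180 in the input (SD, n = 12 each). On the log2 scale it was 1.31 lower, or 0.403-fold, with an exact permutation p of 0.000214 and an adjusted value of 0.00214. It was lower in the IP in 11 of 12 names, the exception being the running library f of day 27. Input ratios ran from 0.779 in the running library b of day 11 to 1.37 in the sedentary library e of day 27.

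Over the 12 IP libraries no relation in level of Calb1 and Calb2 was detected (Pearson r = -0.36, permutation p = 0.246; Spearman rho = -0.28, permutation p = 0.376; r = -0.37 without the 2 libraries farthest from the median of Calb1). Over the 12 input libraries r was 0.79 (permutation p = 0.00258, adjusted 0.00516 over the 2 fractions) and rho 0.58 (permutation p = 0.0523, adjusted 0.105), with r = 0.52 without the 2 farthest. With group means taken out, r was 0.49 in the input and 0.21 in the IP. Each day has 4 libraries per fraction, too few for a value within days.

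**Figure D4:**
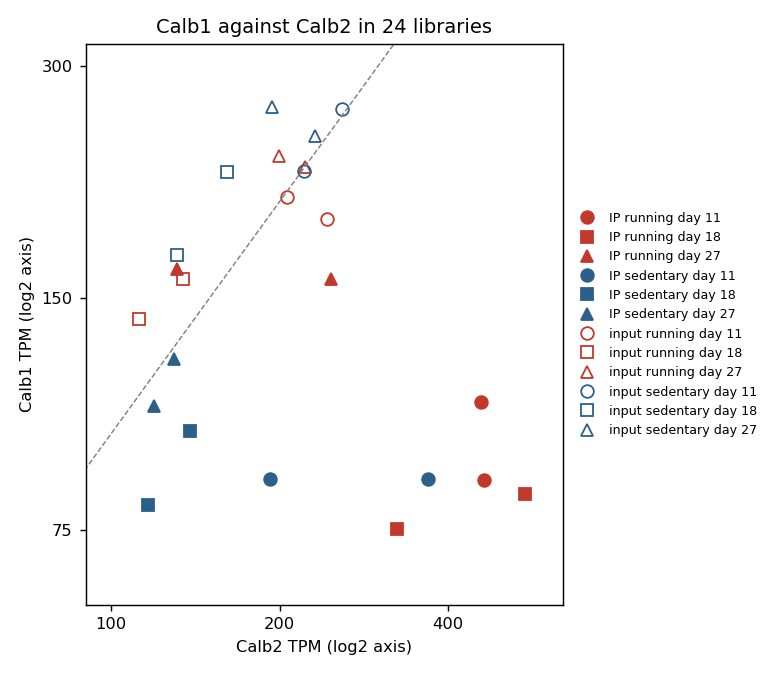
Calb1 against Calb2 TPM (log2 axes) with 1 point for each library, coloured by activity and shaped by day, filled for IP and open for input, with a dashed line where both are equal. The IP libraries of day 11 and the running ones of day 18 lie to the right of the line, and those of day 27 lie nearer to it.

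Among 37 other tested members of a list of EF-hand buffers and sensors, 23 were lower and 3 higher in the IP than in the input, with a median of -0.58 against 0.12 over all genes, of which 28.5% were lower and 41.4% higher. Under median-of-ratios scaling, which moved the median of all genes from 0.12 to -0.12, 28 were lower and 2 higher. Pvalb, the parvalbumin of fast-spiking interneurons, had 4.28 ± 1.62 TPM in the IP against 21.04 ± 2.99 TPM in the input (-2.13 ± 0.09 on the log2 scale, adjusted p = 2.97e-13). Hpca, the neuronal calcium sensor hippocalcin, stood at 253 ± 65.2 and 602 ± 163 TPM (-1.24 ± 0.12, adjusted p = 2.3e-08). Vsnl1, the sensor visinin-like protein, stood at 71.5 ± 17.3 and 314 ± 60.7 TPM (-2.12 ± 0.09, adjusted p = 1.10e-13). Calb1 lay with the lower genes of the list. Calb2 lay above 0 in the deposited scale, but its difference was 0.017 after median-of-ratios scaling (adjusted p = 0.914) and 0.051 without day 18.

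**Figure D5:**
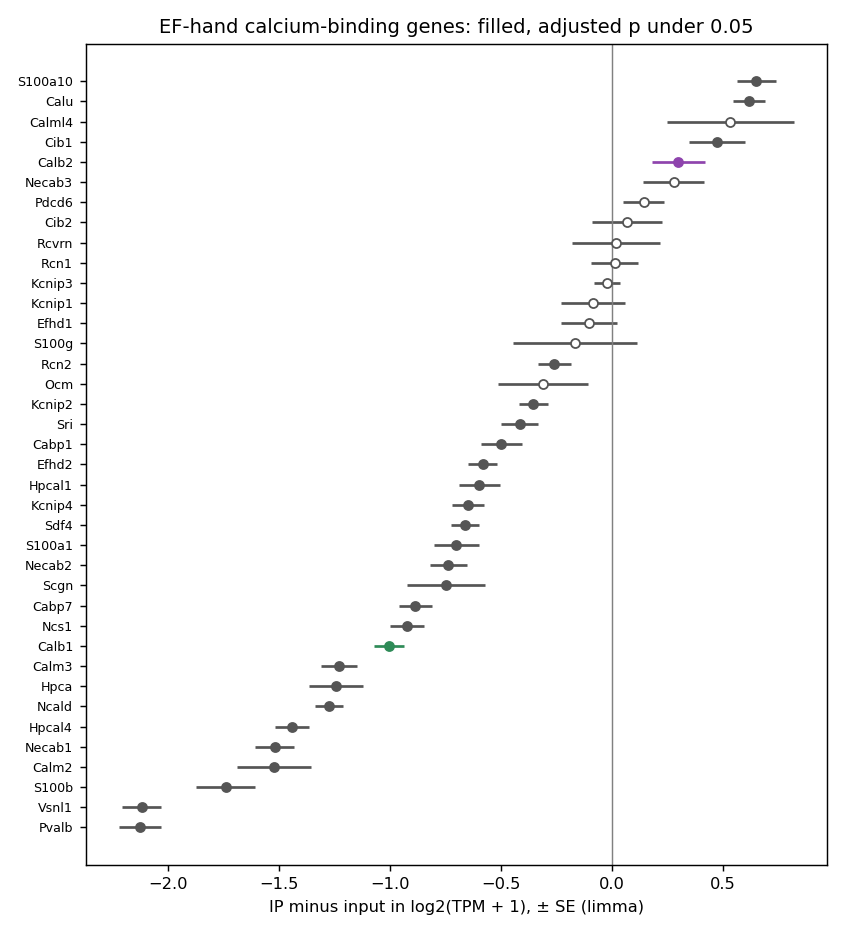
IP minus input in log2(TPM + 1) (x axis, bars of 1 SE) for the EF-hand genes reported (rows), with Calb1 in green, Calb2 in purple and filled points for an adjusted p under 0.05. Calb2 lies to the right of 0 at 0.30, beside S100a10, Calu and Cib1, and Calb1 lies among the lower genes at -1.01.

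From day 11 to day 27 in the IP, 7 of these 37 genes rose and 3 fell, with a median of 0.10 against 0.15 over all genes, of which 11.4% rose and 3.88% fell, and with 5 and 5 after median-of-ratios scaling. Ncald, the sensor neurocalcin delta, went from 158 ± 4.98 to 281 ± 55.7 TPM (log2 difference 0.81 ± 0.10, adjusted p = 0.000264). Necab3, a neuronal calcium-binding protein, went from 14.1 ± 2.54 to 25.7 ± 9.80 TPM (0.76 ± 0.16, adjusted p = 0.00576), and S100a10, an annexin partner, from 56.9 ± 6.72 to 35.5 ± 11.1 TPM (-0.71 ± 0.12, adjusted p = 0.00169). Of 24 genes of calcium entry, release and extrusion, 11 rose and 0 fell, beside the same shares over all genes, with a median of 0.42, and 6 and 0 after median-of-ratios scaling. Slc8a2, a sodium-calcium exchanger, went from 112 ± 8.78 to 304 ± 92.0 TPM (1.38 ± 0.12, adjusted p = 4.65e-05), Orai2, a store-operated channel subunit, from 79.9 ± 5.27 to 143 ± 22.9 TPM (0.82 ± 0.10, adjusted p = 0.00022), and Atp2b2, a plasma membrane calcium pump, from 144 ± 8.91 to 253 ± 52.7 TPM (0.79 ± 0.11, adjusted p = 0.000444).

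For running in the IP, limma called 0 of the 37 EF-hand genes, with 10 at an unadjusted p under 0.05, beside 14.2% of all genes, and 17 positive. Necab3 stood at 26.1 ± 8.77 in running and 14.8 ± 3.52 TPM in sedentary libraries (log2 difference 0.73 ± 0.13, adjusted p = 0.0635), and Hpca at 290.5 ± 73.6 and 215.6 ± 24.2 TPM (0.40 ± 0.13, adjusted p = 0.212). Pvalb differed by 0.23 ± 0.18 (adjusted p = 0.562). S100a10 and S100a1 went the other way, at -0.53 ± 0.10 (adjusted p = 0.101) and -0.48 ± 0.16 (adjusted p = 0.225).

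The lists of other stages and cells were counted over the same days, beside the 11.4% of all genes that rose and the 3.88% that fell. From day 11 to day 27 in the IP, 11 of 16 progenitor and neuroblast genes fell and 0 rose (16 and 0 after median-of-ratios scaling), and 20 of 30 mature granule neuron genes rose and 0 fell (17 and 0). Eomes, a factor of intermediate progenitors, went from 60.8 ± 17.4 to 24.2 ± 2.88 TPM (log2 difference -1.26 ± 0.18, adjusted p = 0.000556), and Icam5, a dendritic adhesion molecule, from 82.7 ± 11.8 to 180.9 ± 31.7 TPM (1.12 ± 0.11, adjusted p = 7.27e-05). Of 27 immature granule neuron genes 1 rose and 2 fell (1 and 7 after median-of-ratios scaling), and Dcx was at 137 ± 44.1 and 91.1 ± 15.6 TPM (-0.54 ± 0.22, adjusted p = 0.114). Of 18 genes of neural stem cells and astrocytes 4 fell and 0 rose (median -0.29, with 10 and 0 after median-of-ratios scaling), and of 10 of microglia 3 fell and 0 rose (median -0.45, with 3 and 0). In TPM, Calb1 thus rose beside the mature list and Calb2 fell beside the progenitor, stem cell and microglia lists.

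Markers of the other cells known to hold these proteins were present in the IP. The 19 interneuron genes summed to 448 to 539 TPM in the IP and 1073 to 1614 TPM in the input, and 18 of them were lower in the IP and 0 higher by limma, beside 28.5% and 41.4% of all genes. For running in the IP, 8 of the 19 were positive (median -0.13, against -0.07 over all genes). By day, 10 were positive at day 11 (median 0.04), 10 at day 18 (median 0.09) and 5 at day 27 (median -0.32). Medians over all genes on these days were -0.11, -0.01 and -0.08. Gad2, the GABA-making enzyme, stood at 19.8 ± 4.13 in the running and 25 ± 1.13 TPM in the sedentary IP (log2 difference -0.35 ± 0.13, adjusted p = 0.256), and was above 0 in every library, as was Vip, at 2.94 ± 0.914 and 4.39 ± 0.909 TPM. Cajal-Retzius genes summed to 105 to 182 TPM in the running and 121 to 147 TPM in the sedentary IP, and mossy cell genes to 263 to 384 and 327 to 353 TPM. Within days, the Cajal-Retzius sum overlapped between activities at day 11, but at day 18 running libraries had 182 and 166 TPM and sedentary ones 147 and 132 TPM, and at day 27 the values were 142 and 152 against 121 and 126 TPM. The mossy cell sum overlapped at days 11 and 18 and was lower in running at day 27 (263 and 285 against 338 and 339 TPM). Cajal-Retzius sums were thus higher in the running libraries without overlap at days 18 and 27, when 45.3% and 45.9% of single genes did not overlap in either direction. Of 8 tested genes of that list, 3 were positive at day 18 (median -0.13, against -0.01 over all genes). At day 27, 4 were positive (median -0.05, against -0.08 over all genes). The part of the Cajal-Retzius genes in the Calb2 difference was not tested. The 16 genes of CA pyramidal neurons summed to 835 to 1138 TPM in the IP and 959 to 1338 TPM in the input, with 12 lower and 1 higher in the IP by limma, beside the same shares of all genes. That sum overlapped between activities in the IP at days 11 and 18 and was higher in running at day 27 (1138 and 1022 against 962 and 912 TPM). By gene, however, only 6 of the 16 were positive for running at day 27 (median -0.16, against -0.08 over all genes). Trp73, a defining gene of Cajal-Retzius cells, stood at 3.08 ± 0.800 TPM in the running and 3.24 ± 0.904 TPM in the sedentary IP, and Drd2, the dopamine receptor that marks mossy cells, at 1.89 ± 0.729 and 2.60 ± 0.741 TPM. None of these 4 genes was at 0 in any library.

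Genes were ranked by the likeness of their pattern to Calb1 or Calb2 over the 12 libraries of a fraction, as Pearson r of log2(TPM + 1), which describes these libraries and shares their scaling. In the IP, genes that matched Calb1 closely were Ncam2 (r = 0.96), Hpcal4 (0.92), Chn1 (0.92) and Schip1 (0.91), and those opposed to it were Ech1 (-0.92), Nabp1 (-0.91) and Lima1 (-0.90). Calb2 in the IP was matched by Lrch2, Nasp, Rad21, Hsp90aa1 and Tcp1 (r of 0.94 to 0.95), and opposed by D4Wsu53e (-0.96), Zfhx2as (-0.96) and Rbm15 (-0.95). The log2 ratio in the IP was matched by Tmem28, Slc24a2, Jun, Grhl1 and Klhl34 (r of 0.92 to 0.95). In the input, Calb1 was matched by St8sia3, Pdp1, Trpc6, Copb1 and Ncoa1 (r of 0.97), Calb2 by Nub1, Srpk1, Ttll1, Thumpd3 and Scg3 (r of 0.98 to 0.99), and the ratio by Coa5, Tmem168, Phxr4, Mfap3 and Gpr75 (r of 0.89 to 0.93). No gene stood in the list of both Calb1 and Calb2 in either fraction.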

How the data were processed

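The authors deposited 1 table of TPM values for 23306 genes in 24 libraries. RSEM and the mm10 build are named in these values' history, per the submitters' processing notes, while the sources used here do not give the RSEM version, aligner, annotation or strand setting. Libraries were made with a stranded total RNA kit, per the labels' protocols. TPM keeps no read depth, so no counting interval was computed. Groups follow the labels (12 groups of 2 libraries). Nothing in the labels says that both libraries of a group are from different mice. P-values therefore measure the spread between samples, and that spread may be technical.

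Genes averaging at least 1 TPM in a fit's libraries were tested on log2(TPM + 1) with limma 3.58.1 in R 4.3.3 (lmFit, eBayes with trend and robust), two-sided, and adjusted by Benjamini-Hochberg over all genes of a comparison with a threshold of 0.05. Differences on this scale understate changes of low genes. IP against input was fitted on all 24 libraries, and day and activity within each fraction. The Calb1 to Calb2 ratio was tested by exact permutation, two-sided, and correlations by 100000 resamples (scipy 1.17.1). The 12 gene lists hold 235 entries, 3 of which were not in the table. The members and lists were chosen with earlier results of these data known. Calb1 and Calb2 are named in every comparison. From lists, up to 4 genes of lowest p were taken, together with Pvalb, Hpca, Necab3, Dcx and Rbfox3, and some markers of other cells were named after their values were seen. For likeness, the 5 most like and 3 most opposed genes with a mean of at least 10 TPM and a proper symbol were named. A few genes that these rules take are left out of the text. The fits were tested on simulated data with known changes. Sequences and positions came from GENCODE M21 (GRCm38). Alternatives were other pseudocounts, filters and scalings, a replicate block, and leaving out libraries or day 18.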

Additional observations from a re-analysis of the deposited data

Results flagged for a closer look

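Over 30 sets of values, 4 held a library set apart from the rest of its set. Dixon's 95% value, which set the limit, marks about 1 in 20 independent groups by chance. These sets share libraries and some join several days, so that rate need not hold for them. In the IP at day 11, Calb1 was 109.96 TPM in the running library a, while the other libraries lay between 87.05 and 87.45 TPM. In the IP at day 27, Calb2 was 246.61 TPM in the running library e, above 3 libraries at 119.49 to 130.86 TPM. In the sedentary IP, Calb2 was 368.38 TPM in the library a of day 11. In the input at day 11, the Calb1 to Calb2 ratio was 0.779 in the running library b, with the others at 0.981 to 1.02.

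The step of Calb2 from day 18 to day 27 differed between IP and input by -1.28 on the log2 scale (adjusted p = 0.00756 by limma). It was -0.63 in the IP, which did not pass (adjusted p = 0.306), and 0.66 in the input. Calb1 in the IP was lower in running than in sedentary mice in both letters of day 18, by -0.19 in the mean, and higher in both letters of day 27, by 0.35 and 0.59, and the F test of the difference between the days had an adjusted p of 0.921.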

How the results depend on the processing

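Of 1276 repeats of 58 results under other settings or without a library, 1206 kept direction and side of the threshold. Some of these repeats left out a library of a day outside the comparison, which cannot move its log2 difference. Many of the 58 results had not passed in the main fit, so the total does not measure how firm the calls are. For Calb2 in IP against input over all days the log2 difference was 0.017 after median-of-ratios scaling, 0.30 with a replicate block by library name (adjusted p = 0.0564), 0.051 without day 18 and 0.22 without both IP libraries a of day 11, and 0.22 to 0.38 without 1 library each. At day 11 it was 0.32, 0.59 (adjusted p = 0.0522) and 0.37 under the first, the replicate block and the last of these, and 0.36 to 0.83 without 1 library. At day 27 it passed at -0.49 with a minimum of 5 TPM or without both libraries a, at -0.82 after median-of-ratios scaling and at -0.55 without the most abundant RNAs, and was -0.72 to -0.27 without 1 library. The Calb2 step from day 11 to day 27 in IP minus input passed with a minimum of 5 TPM (-1.09) and was -1.32 to -0.85 without 1 library, and that from day 11 to day 18 was -0.038 to 0.43, reversed without the sedentary IP library b. Calb2 for running in the IP passed with a replicate block by letter (1.01) and was 0.86 to 1.17 without 1 library and 0.66 without day 18 (adjusted p = 0.748), and the ratio was -0.34 without day 18 against -0.87 with it. Calb1 for running at day 11 in the IP was -0.0065 without both libraries a, and -0.0061 to 0.33 without 1 library. In the IP, day 27 against day 11 did not pass for Calb1 after median-of-ratios scaling (0.42) or for Calb2 without both libraries a (-0.99). Day 27 against day 18 for Calb1 did not pass with no filter (0.69) or after median-of-ratios scaling (0.66), and was 0.61 to 0.77 without 1 library. In the input, day 18 against day 11 for Calb1 did not pass with a minimum of 5 TPM (-0.35) and was -0.44 to -0.26 without 1 library, and day 27 against day 18 was 0.40 to 0.58. Calb2 for running in the input was -0.21 to 0.027 at day 11 and -0.14 to 0.12 at day 27 without 1 library, and the ratio was -0.23 to -0.099, with an adjusted p of 0.0463 without the sedentary library f of day 27. The cause of these shifts was not tested.

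Deviations of running and sedentary libraries of a letter correlated at 0.20, 0.05 and 0.06 in the IP and 0.27, 0.08 and 0.08 in the input at days 11, 18 and 27. Those of IP and input libraries of a name correlated at -0.28 to -0.01. Letters and names were therefore not taken as pairs in the main limma fits. The permutation test of the running difference of the ratio in IP minus input did pair IP and input libraries by name. Counts over all genes also moved: running in the IP called 440 genes with the replicate block and 1 without it, day 27 against day 11 in the IP called 636 genes without both libraries a and 2642 with them. That step in IP minus input called 136 without day 18, 56 without both libraries a, 5 with the block and 348 otherwise, and day 27 against day 18 in the IP 7 with no filter, 37 with a pseudocount of 5, 55 with a minimum of 5 TPM, 70 without the most abundant RNAs and 21 otherwise. Depth is unknown, and with 2 libraries per group a comparison of 2 against 2 cannot give an exact p below 0.333.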
